A study of Homo sapiens with 18 samples.

Results

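The kallikreins and desquamation inhibitors described here are 9 genes chosen by name, with earlier results of these data known. They are the protease inhibitor genes SPINK5 and CST6, the serpin gene SERPINB5, and the serine protease genes KLK5, KLK6, KLK7, KLK8, KLK10 and KLK11. Of these, 8 have a row among the 15896 genes of the expression table, and KLK6 was not analysed here. A gene was tested if it reached at least 1 CPM (the TMM normalized read count, scaled to library size) in at least 3 of the 18 libraries, which held for 13417 genes in all and for SPINK5, SERPINB5, KLK5, KLK10 and KLK11. KLK7, KLK8 and CST6 were too low for the test, so their values are given without one. KLK11 passed only through its 3 Ad-TEADi 48 h libraries, so it had to differ there.

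The study blocked the activity of TEAD transcription factors in N/TERT2G cells, an immortalised line of human epidermal keratinocytes, and sequenced polyadenylated RNA. Cells received an adenovirus at a multiplicity of infection of 25 on the day after plating. Ad-TEADi carried an inhibitor made of GFP joined to the TEAD-binding parts of VGLL4, YAP1 and TAZ and to a nuclear localisation signal, and Ad-GFP carried GFP alone. RNA was taken at 12, 24 and 48 h after transduction, with 3 libraries for each of Ad-TEADi 12 h, Ad-TEADi 24 h, Ad-TEADi 48 h, Ad-GFP 12 h, Ad-GFP 24 h and Ad-GFP 48 h. All 6 groups thus share the same cell line, the adenoviral vector and GFP. The labels do not say that the libraries of a group came from separate cultures, so a p-value here reflects only the scatter of these libraries, which may be technical.

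In the living epidermis, desmoglein, desmocollin and corneodesmosin hold the cells of the horny layer together. Kallikreins are secreted as inactive precursors and, once activated in the upper granular layer, cut these junction proteins so that dead cells can be shed. SPINK5 encodes LEKTI, a chain of inhibitor domains that holds kallikreins in check and whose loss causes Netherton syndrome. Expression of both sides of this balance belongs to late keratinocyte differentiation.

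The libraries held 14.2 to 26.7 M estimated reads. The authors' scaling added 1 read to each gene, so that a gene without reads stands at 0.0339 to 0.0605 CPM depending on the library. All 10 keratinocyte markers looked for were in the table, and they summed to 48234 to 51266 CPM in Ad-TEADi 48 h libraries against 38920 to 39362 CPM in Ad-GFP 48 h libraries. The largest part was KRT5, at 20447 to 21927 CPM in Ad-TEADi cells against 16711 to 17337 CPM in Ad-GFP cells. ITGB4 went the other way, with 1991 to 2309 CPM in Ad-TEADi cells against 2417 to 2548 CPM in Ad-GFP cells. The ranges of LAMB3 and SFN overlapped. As a check on the inhibitor, CTGF, a direct YAP and TEAD target, differed between Ad-TEADi and Ad-GFP by −0.48 (adjusted p = 0.134), −1.81 (2.3e-06) and −2.97 (1.4e-09) on the log2 scale at 12, 24 and 48 h. CYR61, another such target, differed by −0.34 (0.0639), −1.0 (6.8e-07) and −1.66 (1.7e-10). Both were called lower at 24 and 48 h.

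The stretches just before the starts of 4 of these genes are printed because they show which members carry the letters of a TEAD site close to the start and which do not. Each is the 250 bases before a transcription start in RefSeq, matched to GRCh37, the sequence of hg19 used for the files, and written 5′ to 3′ in the direction of the gene. Capitals mark matches, on either strand, to the TEAD core GGAATG, the AP-1 site TGANTCA, the KLF site GGGNGTGG and the TATA box TATAAA. The SPINK5 stretch is chr5:147443293-147443542 on the plus strand, that of KLK5 is chr19:51456295-51456544 on the minus strand, that of KLK10 is chr19:51522966-51523215 on the minus strand and that of SERPINB5 is chr18:61143941-61144190 on the plus strand. This SPINK5 stretch lies inside the interval listed for the gene with its expression values, which begins at 147405246.
SPINK5: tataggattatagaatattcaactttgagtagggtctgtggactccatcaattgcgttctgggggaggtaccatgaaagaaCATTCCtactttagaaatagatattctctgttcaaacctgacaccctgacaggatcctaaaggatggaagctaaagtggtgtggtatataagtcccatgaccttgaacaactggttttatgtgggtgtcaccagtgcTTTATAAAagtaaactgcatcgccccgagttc
KLK5: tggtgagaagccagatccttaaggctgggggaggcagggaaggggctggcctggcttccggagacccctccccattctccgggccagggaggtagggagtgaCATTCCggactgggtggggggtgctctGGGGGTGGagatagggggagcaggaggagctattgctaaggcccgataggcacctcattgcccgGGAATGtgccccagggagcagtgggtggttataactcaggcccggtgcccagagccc
KLK10: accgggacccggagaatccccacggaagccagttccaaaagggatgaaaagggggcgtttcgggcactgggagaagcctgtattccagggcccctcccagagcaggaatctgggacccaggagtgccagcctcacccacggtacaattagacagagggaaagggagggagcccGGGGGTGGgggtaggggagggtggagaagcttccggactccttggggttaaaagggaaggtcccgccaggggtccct
SERPINB5: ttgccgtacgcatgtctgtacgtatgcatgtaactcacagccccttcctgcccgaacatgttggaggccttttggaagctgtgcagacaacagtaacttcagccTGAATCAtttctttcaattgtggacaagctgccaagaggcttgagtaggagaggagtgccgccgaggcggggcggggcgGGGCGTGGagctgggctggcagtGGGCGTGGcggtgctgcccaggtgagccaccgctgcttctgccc

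The TEAD core occurred 1 time before SPINK5, beginning 169 bases upstream, and 2 times before KLK5, beginning 148 and 57 bases upstream. It was in none of the other windows. Of the 35116 promoter stretches of this length in the RefSeq table, 11.9% held it. SPINK5 also held overlapping TATA boxes on both strands, beginning 32 and 30 bases upstream (10.7% of all stretches hold this motif). SERPINB5 held an AP-1 site 146 bases upstream (6.57% of all stretches) and KLF sites 67 and 44 bases upstream (15.7%), KLK5 held a KLF site 121 bases upstream, and KLK10 held one 77 bases upstream. A second KLK10 start, the 3 starts listed for KLK7 and the 2 listed for KLK11 held none of the 4 motifs in this window. These are matches of letters and not measured binding. Of the 8 genes in the table, 6 matched a promoter row, and KLK8 and CST6 did not.

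SPINK5 (hg19 chromosome 5, 147405246 to 147516853, plus strand) had the largest change of the 5 tested genes. At 48 h it had 8.55, 10.8 and 11.5 CPM in Ad-TEADi cells, against 1.06, 1.34 and 0.712 CPM in Ad-GFP cells. Every Ad-TEADi library lay far above every Ad-GFP library, and the difference was 2.47 ± 0.16 on the log2(CPM + 1) scale (SE, n = 3 each, limma adjusted p = 2.3e-14). This pseudocount of 1 shrinks the changes of low genes. In a bulk culture a change in the share of expressing cells and a change in RNA per cell cannot be told apart.

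At 24 h SPINK5 had 1.78, 2.80 and 2.68 CPM in Ad-TEADi cells, against 0.903, 0.875 and 1.77 CPM in Ad-GFP cells. The groups did not overlap, but the highest Ad-GFP library almost touched the lowest Ad-TEADi library. The difference of 0.66 ± 0.16 (SE, n = 3 each, limma adjusted p = 0.00368) passed the call rule, which asks for a fold change of at least 1.5 with an adjusted p under 0.05. It fell under the fold limit without Ad-GFP replicate 1 (0.57), Ad-GFP replicate 2 (0.56) or Ad-TEADi replicate 2 (0.58), while the highest adjusted p on leaving out a library was 0.0341.

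At 12 h SPINK5 had 0.773, 0.981 and 1.04 CPM in Ad-TEADi cells, against 0.922, 0.549 and 0.726 CPM in Ad-GFP cells. These groups overlapped, and the difference was 0.16 ± 0.16 (SE, adjusted p = 0.645). Ad-GFP cells averaged between 0.732 and 1.18 CPM at all 3 times with overlapping libraries, and all Ad-TEADi 24 h and 48 h libraries lay above them. Exons of SPINK5 overlap those of FBXO38-DT on the other strand, and the sources used here do not say whether reads were counted by strand.

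**Figure D1:**
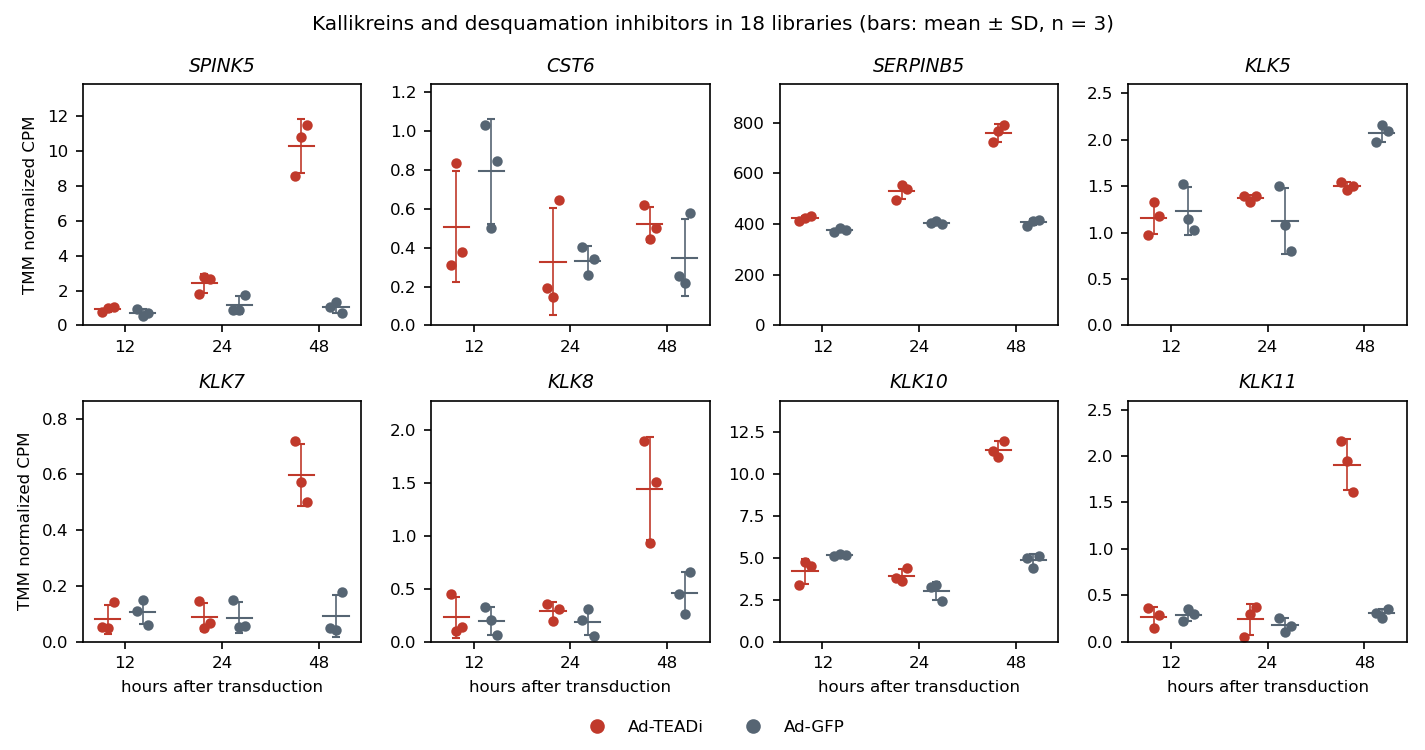
TMM normalized CPM (linear axes from 0, a scale for each gene) of the 8 genes in the table against hours after transduction, with Ad-TEADi left of Ad-GFP, a point for each library and bars for mean ± SD (n = 3). At 48 h the Ad-TEADi points of SPINK5 (8.55 to 11.5 CPM), SERPINB5, KLK7, KLK8, KLK10 and KLK11 lie above all Ad-GFP points, those of KLK5 lie below them, and those of CST6 overlap them. The share of all genes without overlap was not computed, and 6775 of the 13417 tested genes had a limma adjusted p under 0.05 at 48 h. KLK11 passed the filter only through its Ad-TEADi 48 h libraries.

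SERPINB5 (chromosome 18, 61143994 to 61172319, plus strand) encodes maspin, a member of the serpin family that is abundant in keratinocytes. It was the most abundant member in every group. At 48 h it had 722, 766 and 792 CPM in Ad-TEADi cells, against 393, 412 and 416 CPM in Ad-GFP cells. The groups lay wide apart, with a difference of 0.90 ± 0.04 (SE, n = 3 each, limma adjusted p = 1.0e-17).

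The 24 h values were 494, 554 and 536 CPM in Ad-TEADi cells, against 406, 411 and 401 CPM in Ad-GFP cells. Again the groups did not overlap, and the difference of 0.38 ± 0.04 had an adjusted p of 5.8e-08 but stayed below the fold limit. At 12 h they were 414, 424 and 430 CPM in Ad-TEADi cells, against 370, 385 and 378 CPM in Ad-GFP cells. All 3 Ad-TEADi libraries were the higher ones at 12 h too, by 0.16 ± 0.04 with an adjusted p of 0.0514, so no call was made.

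CST6 (chromosome 11, 65779312 to 65780977, plus strand) encodes cystatin M/E, an inhibitor of cathepsins and legumain. It had 0.618, 0.442 and 0.501 CPM in Ad-TEADi cells at 48 h, against 0.253, 0.216 and 0.578 CPM in Ad-GFP cells, and these groups overlapped. The values rested on 28 estimated reads in Ad-TEADi cells and 20 in Ad-GFP cells, a ratio per library size of 1.53 with an exact 95% interval of 0.829 to 2.86 that covers counting error only. Its values also overlapped at 12 h (0.309, 0.834 and 0.376 CPM in Ad-TEADi cells against 1.03, 0.499 and 0.847 CPM in Ad-GFP cells) and at 24 h (0.193, 0.147 and 0.644 CPM in Ad-TEADi cells against 0.401, 0.257 and 0.342 CPM in Ad-GFP cells). No difference in CST6 between the viruses was established, and the interval leaves ratios up to 2.86 open at 48 h.

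The kallikrein genes all lie on the minus strand of 1 stretch of chromosome 19. KLK10 (51515995 to 51523432), a kallikrein of the differentiated epidermis, was the most abundant of them per length. It had 11.3, 11.01 and 12.0 CPM in Ad-TEADi cells at 48 h, against 5.00, 4.41 and 5.07 CPM in Ad-GFP cells. The groups were well separated, by 1.09 ± 0.12 (SE, n = 3 each, limma adjusted p = 4.0e-09).

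The KLK10 values at 24 h were 3.76, 3.58 and 4.37 CPM in Ad-TEADi cells, against 3.26, 3.40 and 2.40 CPM in Ad-GFP cells. These did not overlap, yet the difference of 0.29 ± 0.12 did not pass (adjusted p = 0.0948). At 12 h all 3 Ad-TEADi libraries were below all 3 Ad-GFP libraries, with 3.35, 4.71 and 4.52 CPM in Ad-TEADi cells against 5.10, 5.19 and 5.14 CPM in Ad-GFP cells. That difference was −0.25 ± 0.12 (adjusted p = 0.265) and was not called. Within each virus the 24 h mean of KLK10 was below the 12 h mean, at 3.90 against 4.19 CPM in Ad-TEADi cells and 3.02 against 5.14 CPM in Ad-GFP cells, without a test. Exons of KLK10 overlap an antisense transcript.

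KLK11 (51525472 to 51531296), which encodes another secreted kallikrein, was near its floor in all groups but 1. It had 2.16, 1.95 and 1.61 CPM in Ad-TEADi cells at 48 h, against 0.303, 0.259 and 0.356 CPM in Ad-GFP cells. No library of the other 5 groups exceeded 0.373 CPM. The difference was 1.15 ± 0.15 (SE, n = 3 each, limma adjusted p = 7.2e-08). The estimated reads were 112 in Ad-TEADi cells against 17 in Ad-GFP cells, a ratio of 7.18 (exact 95% interval of the counting error 4.29 to 12.8). At 24 h the difference was 0.07 ± 0.15 (adjusted p = 0.812) and at 12 h −0.03 ± 0.15 (0.941), with overlapping groups.

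KLK5 (51446559 to 51456350) encodes the trypsin-like protease that can activate other kallikreins and is a main target of LEKTI. It was the tested member that did not rise at 48 h. It had 1.55, 1.46 and 1.502 CPM in Ad-TEADi cells, against 1.97, 2.16 and 2.09 CPM in Ad-GFP cells. Every Ad-TEADi library was below every Ad-GFP library, but the difference of −0.30 ± 0.14 missed both the fold limit and the limit on p (limma adjusted p = 0.0743). Its 95% interval was −0.58 to −0.01. The limma adjusted p was 0.0496 with a pseudocount of 5 and 0.121 with a pseudocount of 0.1, and KLK5 stayed under the fold limit in both.

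At 24 h KLK5 had 1.40, 1.32 and 1.39 CPM in Ad-TEADi cells, against 1.504, 1.08 and 0.799 CPM in Ad-GFP cells, and at 12 h 0.979, 1.32 and 1.18 CPM in Ad-TEADi cells, against 1.52, 1.15 and 1.03 CPM in Ad-GFP cells. Both pairs of groups overlapped, with differences of 0.17 ± 0.14 (adjusted p = 0.458) and −0.04 ± 0.14 (0.905). KLK5 exons overlap an antisense transcript.

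KLK7 (51479729 to 51487356) encodes the chymotrypsin-like protease that cuts corneodesmosin, and it was the lowest member per length in every group. At 48 h it had 0.721, 0.575 and 0.501 CPM in Ad-TEADi cells, against 0.0506, 0.0432 and 0.178 CPM in Ad-GFP cells. These correspond to 13, 12 and 8 estimated reads in Ad-TEADi cells against 0, 0 and 3 in Ad-GFP cells, so the groups did not overlap. The ratio of the summed reads, 33 in Ad-TEADi cells against 3 in Ad-GFP cells, was 12.0 (exact 95% interval of the counting error 3.76 to 61.1). At 12 and 24 h no library held more than 2 reads.

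KLK8 (51499263 to 51505968) encodes a trypsin-like kallikrein also called neuropsin. It had 1.90, 0.928 and 1.51 CPM in Ad-TEADi cells at 48 h, against 0.455, 0.259 and 0.659 CPM in Ad-GFP cells, without overlap. The 82 estimated reads in Ad-TEADi cells against 27 in Ad-GFP cells gave a ratio of 3.31 (exact 95% interval of the counting error 2.12 to 5.32). At 12 and 24 h KLK8 stayed at or under 0.453 CPM in all 12 libraries and the groups overlapped. Its exons overlap those of KLK9 on the same strand, so the split of reads between these genes is uncertain. In a fit with no filter on low values, KLK8 was called higher at 48 h (0.74 ± 0.15, limma adjusted p = 9.1e-05), KLK7 had an adjusted p of 8.5e-05 but lay below the fold limit (0.55 ± 0.11), and CST6 differed by 0.18 (adjusted p = 0.349). With no filter and a pseudocount of 0.1, KLK7 was called higher too (1.93, limma adjusted p = 3.9e-04).

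At 12 h none of the 5 tested members was called, against 0.0447% of all tested genes called in either direction (6 genes by limma, with 2436 at an unadjusted p under 0.05). At 24 h 1 member, SPINK5, was called higher and none lower, against 1.16% of all tested genes called higher and 0.626% called lower. At 48 h 4 of 5 were called higher (SPINK5, KLK11, KLK10 and SERPINB5) and none lower, against 6.27% of all tested genes called higher and 6.3% called lower. The median difference of the 5 was 0.29 at 24 h and 1.09 at 48 h, where that of all tested genes was 0.00 and −0.03. The members called at 48 h include KLK11, which could enter the test only by being high there. Since the members were chosen with earlier results of these data known, the shares give scale only and do not test the set.

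**Figure D2:**
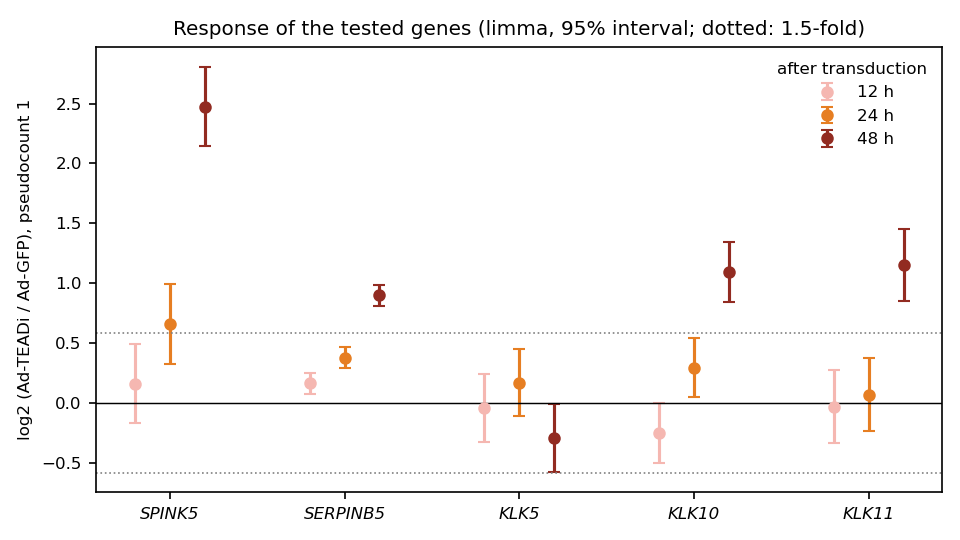
Difference between Ad-TEADi and Ad-GFP on the log2(CPM + 1) scale for the 5 tested genes at 12, 24 and 48 h, as limma estimates with 95% intervals (n = 3 each) and dotted lines at a fold change of 1.5. SPINK5 reaches 2.47 at 48 h, while KLK5 lies at −0.30 with an interval just below 0.

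The difference between the 48 h and 24 h responses was tested itself. It was called for 3 of the 5 members, where 6.06% of all tested genes were called in either direction: SPINK5 (1.81 ± 0.23, limma adjusted p = 3.6e-07), KLK11 (1.08 ± 0.21, 2.3e-04) and KLK10 (0.80 ± 0.17, 8.3e-04). For SERPINB5 the difference of 0.52 ± 0.06 had an adjusted p of 7.2e-08 but lay below the fold limit. For KLK5 it was −0.47 ± 0.20 (adjusted p = 0.0921), and without Ad-GFP 24 h replicate 1 it was called lower (−0.59, adjusted p = 0.0361). Of the 4 members called at 48 h, SPINK5 and KLK10 thus had a larger response at 48 h than at 24 h by this test. So did SERPINB5, by less than the fold limit. KLK11 passed the filter only through its Ad-TEADi 48 h libraries, so it had to differ here.

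Change with time in culture was compared under the control virus alone. In Ad-GFP 48 h against Ad-GFP 12 h none of the 5 members was called by limma, where 8.34% of all tested genes were called higher and 5.25% lower (8109 genes had an unadjusted p under 0.05), so a count of 0 among 5 is near the background. KLK5 had 2.07 ± 0.10 CPM at 48 h against 1.23 ± 0.26 CPM at 12 h (SD, n = 3 each), a difference of 0.47 ± 0.14 (SE, limma adjusted p = 0.00475) below the fold limit. SERPINB5 differed by 0.11 ± 0.04 (adjusted p = 0.0320), SPINK5 by 0.23 ± 0.16 (0.236), KLK11 by 0.02 ± 0.15 (0.922) and KLK10 by −0.08 ± 0.12 (0.607).

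Under the inhibitor, 4 of 5 members were called higher in Ad-TEADi 48 h than in Ad-TEADi 12 h and none lower, against 14.3% of all tested genes called higher and 11.9% called lower. The differences were 2.54 ± 0.16 for SPINK5, 1.27 ± 0.12 for KLK10, 1.20 ± 0.15 for KLK11 and 0.84 ± 0.04 for SERPINB5 (SE, limma adjusted p at most 1.4e-08). KLK5 differed by 0.21 ± 0.14 (adjusted p = 0.171). This comparison shares its Ad-TEADi 48 h libraries with that against Ad-GFP. KLK11 passed the filter only through these libraries, so it had to differ here too.

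Markers of other cell types were looked at beside the 48 h result. Of 10 fibroblast markers 6 were in the table, and they summed to 49.3 to 52.1 CPM in Ad-TEADi 48 h libraries against 22.3 to 25.9 CPM in Ad-GFP 48 h libraries. Most of this was COL1A1, at 38.0 to 41.0 CPM in Ad-TEADi cells against 18.2 to 21.9 CPM in Ad-GFP cells, and DCN, at 6.90 to 10.3 CPM in Ad-TEADi cells against 0.130 to 0.178 CPM in Ad-GFP cells. THY1 went the other way, with 0.840 to 1.61 CPM in Ad-TEADi cells against 1.97 to 2.85 CPM in Ad-GFP cells, and PDGFRA, PDGFRB, LUM and DPT have no row. Of 8 melanocyte markers 2 were in the table, with sums of 0.890 to 1.49 CPM in Ad-TEADi cells against 1.56 to 1.97 CPM in Ad-GFP cells. Of 10 immune and endothelial markers 3 were, with 3.35 to 3.76 CPM in Ad-TEADi cells against 2.28 to 2.67 CPM in Ad-GFP cells. COL3A1 and COL6A3 did not exceed 0.309 CPM in any 48 h library. The part of these markers in the 48 h differences was not tested.

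Levels of different genes were compared as CPM per kilobase of exon, with exon lengths from the GENCODE annotation lifted to GRCh37. In Ad-TEADi 48 h cells the order of the means was SERPINB5 (203 ± 9.35), KLK10 (3.01 ± 0.13), SPINK5 (2.15 ± 0.32), KLK5 (0.909 ± 0.026), CST6 (0.879 ± 0.15), KLK8 (0.776 ± 0.26), KLK11 (0.613 ± 0.089) and KLK7 (0.245 ± 0.046, SD, n = 3). In Ad-GFP 48 h cells it was SERPINB5 (109 ± 3.29), KLK10 (1.27 ± 0.096), KLK5 (1.26 ± 0.058), CST6 (0.590 ± 0.34), KLK8 (0.246 ± 0.11), SPINK5 (0.217 ± 0.066), KLK11 (0.0984 ± 0.016) and KLK7 (0.0370 ± 0.031). SPINK5 was thus the third member in Ad-TEADi cells and the sixth in Ad-GFP cells. In Ad-TEADi cells the ranges of KLK5, CST6 and KLK8 overlapped, as did those of KLK8 and KLK11, and in Ad-GFP cells those of KLK10 and KLK5 did, and so did those of KLK8 and SPINK5. At 12 and 24 h the order was the same under both viruses, with SPINK5 as the fifth member, and CST6 came before KLK5 at 12 h and after it at 24 h.

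Set against each other per length, the 5 measured kallikrein members together had 5.55 ± 0.40 CPM per kb in Ad-TEADi 48 h cells and 2.91 ± 0.22 CPM per kb in Ad-GFP 48 h cells (SD, n = 3 each). SPINK5 amounted to 0.391 ± 0.078 of that sum in Ad-TEADi 48 h cells and 0.0761 ± 0.028 in Ad-GFP 48 h cells, and the groups did not overlap. At 24 h the ratio was 0.240 ± 0.060 in Ad-TEADi cells and 0.167 ± 0.12 in Ad-GFP cells, with overlapping ranges, and at 12 h it was 0.0947 ± 0.0074 in Ad-TEADi cells and 0.0653 ± 0.014 in Ad-GFP cells, without overlap. The differences in this ratio carry no test. These ratios concern RNA and not the amounts of protease or inhibitor.

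Along chromosome 19, the table holds KLK1 (a kallikrein of glandular tissues) and KLK9 besides the members. KLK9, which shares exons with KLK8, had 2.77 ± 0.36 CPM in Ad-TEADi 48 h cells and 0.227 ± 0.16 CPM in Ad-GFP 48 h cells (SD, n = 3 each). It was called higher by 1.62 (limma adjusted p = 6.9e-11). KLK9 passed the filter only through its Ad-TEADi 48 h libraries, so it had to differ there. KLK1 was too low for the test, with means of 0.857 CPM in Ad-TEADi cells and 0.428 CPM in Ad-GFP cells. Of the neighbouring genes in the table, chosen by position, C19orf48 fell by 0.96 on the log2 scale (adjusted p = 2.4e-14), and JOSD2, CTU1, VSIG10L and ETFB were not called, with differences of 0.08 to 0.41. CTD-2568A17.5, next to KLK1, was too low for the test, with means of 0.414 CPM in Ad-TEADi cells and 0.426 CPM in Ad-GFP cells. Of the 7 kallikrein genes in the table, KLK5 was the one with a lower mean in Ad-TEADi cells.

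**Figure D3:**
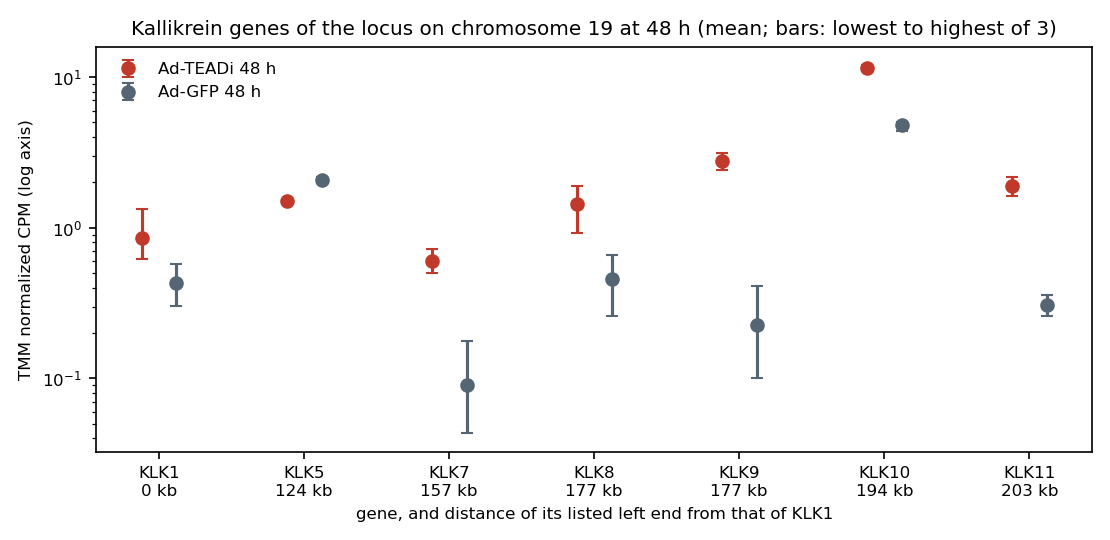
TMM normalized CPM (log axis) at 48 h of the 7 kallikrein genes in the table, ordered by position with the distance in kb of each gene's left end from that of KLK1, Ad-TEADi left of Ad-GFP, as means with bars from the lowest to the highest of 3 libraries. KLK9 shows the widest gap, at 2.77 CPM in Ad-TEADi cells against 0.227 CPM in Ad-GFP cells, and KLK5 the reverse order, with 1.502 CPM in Ad-TEADi cells against 2.07 CPM in Ad-GFP cells.

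Other genes of desquamation were read from 5 lists of 57 symbols, of which 37 were in the table and 33 were tested. The lists, like the members, were chosen with earlier results of these data known. At 12 h none of the 33 was called. At 24 h 1 was called higher and none lower, where 1.16% of all tested genes were called higher and 0.626% lower. At 48 h 16 were called higher and none lower, to be read against the 6.27% of all tested genes called higher, and the median of the 33 was 0.52. Of these 16, 10 passed the filter on low values only through the Ad-TEADi 48 h libraries and so had to differ there: KLK9, CASP14, TMPRSS11E, TMPRSS13, PI3, SERPINB4, SLPI, CDSN, DSG1 and SULT2B1. The count and the median therefore only describe the genes that passed the filter.

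Among targets of the kallikreins, DSG1 (desmoglein 1) averaged 5.60 ± 0.49 CPM in Ad-TEADi 48 h cells and 0.149 ± 0.088 CPM in Ad-GFP 48 h cells, a difference of 2.52. CDSN (corneodesmosin) averaged 8.17 ± 1.004 CPM in Ad-TEADi cells and 0.691 ± 0.45 CPM in Ad-GFP cells, a difference of 2.47. F2RL1, the protease-activated receptor that kallikreins can cut, was lower in all Ad-TEADi libraries (−0.29, limma adjusted p = 2.2e-04). It was not called, since it lay below the fold limit. SULT2B1, which makes cholesterol sulfate, an inhibitor of epidermal serine proteases, rose by 2.66, with 8.70 ± 0.43 CPM in Ad-TEADi cells and 0.533 ± 0.063 CPM in Ad-GFP cells. STS, the sulfatase that removes it, was not called. DSG1, CDSN and SULT2B1 passed the filter only through the Ad-TEADi 48 h libraries, so they had to differ there.

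Of 13 other proteases and activators, 4 rose at 48 h: CASP14, the caspase of cornification (1.65), the membrane-bound serine proteases TMPRSS13 (1.37) and TMPRSS11E (1.22), and the lysosomal cathepsin CTSD (0.71). The other 9 were not called. Of 14 other inhibitors, 8 rose: SERPINB3 (1.87), SERPINB4 (1.33), SERPINB1 (1.24), SERPINB13 (1.13), SLPI (0.94), A2ML1 (0.86), CSTB (0.73) and PI3, the elafin gene (0.67). The other 6 were not called, with differences from −0.27 for SPINT2 to 0.52 for CST3. Both counts stand beside 6.27% of all tested genes called higher at 48 h. CASP14, TMPRSS13, TMPRSS11E, SERPINB4, SLPI and PI3 passed the filter only through the Ad-TEADi 48 h libraries, so they had to differ there. SERPINB3 and SERPINB4 are near-identical copies, so the split of reads between them is uncertain. SERPINB1, an inhibitor of neutrophil proteases, was also the gene called at 24 h (0.71), with 47.4 ± 4.65 CPM in Ad-TEADi cells and 28.6 ± 1.19 CPM in Ad-GFP cells.

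**Figure D4:**
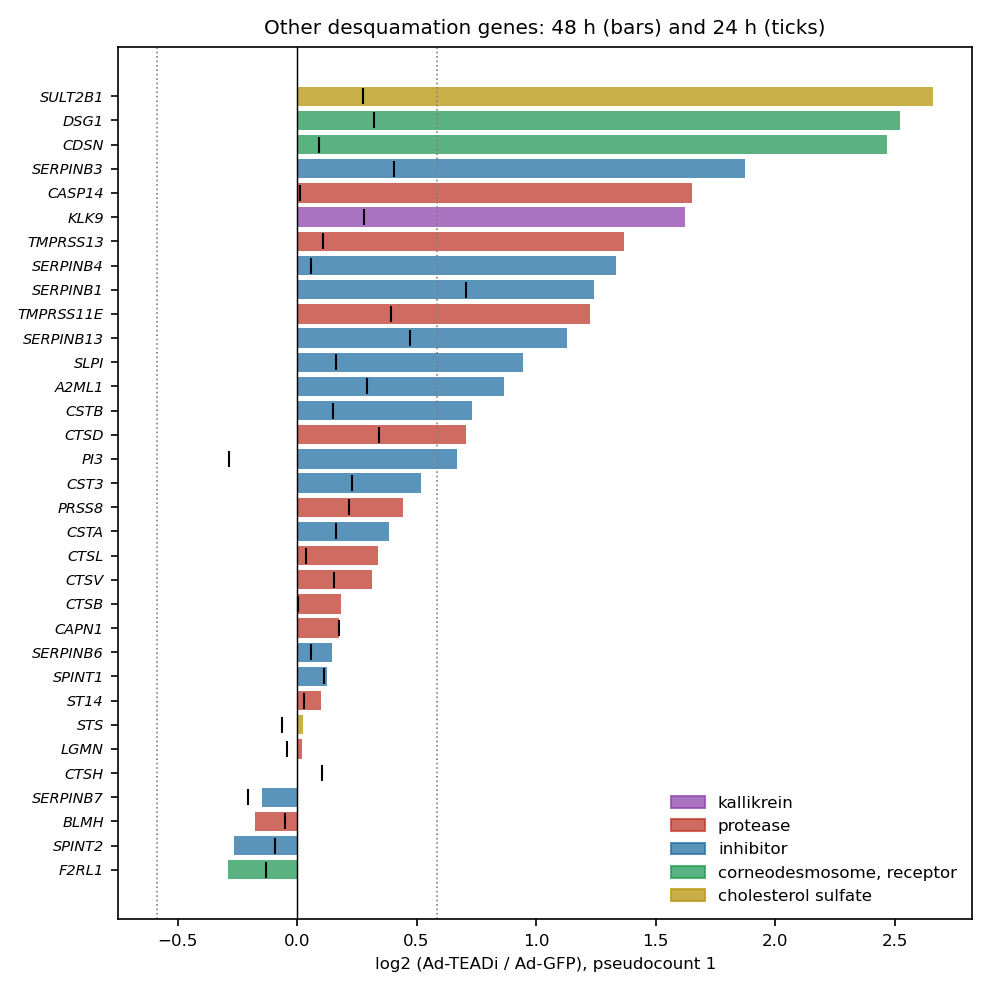
Difference between Ad-TEADi and Ad-GFP on the log2(CPM + 1) scale for the 33 tested desquamation genes outside the 9 members, as bars at 48 h coloured by list and black ticks at 24 h, with dotted lines at a fold change of 1.5. The bars of SULT2B1, DSG1 and CDSN are the longest (2.66, 2.52 and 2.47), and no bar passes the dotted line on the lower side.

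In Ad-GFP 48 h against Ad-GFP 12 h, 6 of the 33 were called higher and none lower (8.34% of all tested genes were called higher), and in Ad-TEADi 48 h against Ad-TEADi 12 h 19 were called higher and none lower (14.3% of all tested genes). The difference between the 48 h and 24 h responses was called for 12 (6.06% of all tested genes in either direction). The 10 genes named above that passed the filter only through the Ad-TEADi 48 h libraries are all among these 12. All of them but PI3 are also among the 19. Both counts therefore only describe the genes that passed the filter.

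For 4 members the group means spanned at least 1 log2 unit, and the genes with the most similar pattern over the 18 libraries were found among 10668 candidates by the root mean square difference of centred log2(CPM + 1) values. SPINK5 lay closest to CWH43 (0.201) and FAXDC2 (0.264). CWH43 averaged 6.12 CPM in Ad-TEADi 48 h cells and 0.542 CPM in Ad-GFP 48 h cells. SERPINB5 lay closest to B3GNT5 (0.0661) and KIFAP3 (0.0711). KLK10 lay closest to the histone genes HIST2H2BE (0.161) and HIST2H2AA4 (0.169, a gene with a near-identical copy), and KLK11 to SCD5 (0.133) and the histone gene HIST1H2AC (0.144). The likeness describes these libraries, which share the 2 viruses and 3 times.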

How the data were processed

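RNA-seq of N/TERT2G keratinocytes was analysed from the table the authors deposited. Per the submitters' notes, reads were processed with Trimmomatic 0.36, STAR 2.5.1 (hg19) and Partek 8.0.19.0819. The values used are TMM normalized CPM deposited by the authors, with 1 read added to each gene; reads were estimated by removing that added read, and 74.8% to 77.3% of low estimates per library lay within 0.01 of a whole number, so no count model was fitted. Depth was 14.2 to 26.7 M estimated reads. The deposited TPM values are divided by each gene's genomic span (within 10% for 99.6% of 9432 genes) and served as an alternative. The authors' deposited p-values, q-values, ratio columns and signed fold change scores, and their group means, were not used.

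Log2(CPM + 1) of genes with at least 1 CPM in at least 3 libraries was analysed by limma 3.58.1 (R 4.3.3; 6 group means, 18 libraries, trend and robust options), with Benjamini-Hochberg adjustment over all tested genes, and genes were called at a fold change of 1.5 or more with adjusted p under 0.05. The fit was tested on simulated data. Alternatives were other pseudocounts, filters, thresholds, TPM, fewer groups, the replicate number as a block and leaving out each library. All members are named, of the other genes those called at 24 or 48 h, and the 2 nearest patterns of each member. The members and lists were chosen with earlier results of these data known. Promoters are from RefSeq.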

Additional observations from a re-analysis of the deposited data

Results flagged for a closer look

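For 4 members the response to Ad-TEADi differed between 48 h and 24 h by the test of the difference itself (limma, adjusted over all tested genes, n = 3 libraries in each of 4 groups). Among them, KLK11 passed the filter only through its Ad-TEADi 48 h libraries, so it had to differ here. No fold limit was applied to these 4, and 2791 of the 13417 tested genes had an adjusted p under 0.05 in this test. The log2 difference was 1.81 ± 0.23 for SPINK5 (SE, adjusted p = 3.6e-07), 1.08 ± 0.21 for KLK11 (2.3e-04), 0.80 ± 0.17 for KLK10 (8.3e-04) and 0.52 ± 0.06 for SERPINB5 (7.2e-08). On leaving out each of the 12 libraries in turn it ranged from 1.63 to 1.93 for SPINK5, from 0.97 to 1.16 for KLK11, from 0.73 to 0.92 for KLK10 and from 0.47 to 0.56 for SERPINB5.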

How the results depend on the processing

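The 24 h count of 1 member (SPINK5) became 0 with a pseudocount of 5, with TPM values, and with a 2-fold limit at an adjusted p under 0.01, became 2 (SPINK5 and SERPINB5) with no fold limit, and ranged from 0 to 1 on leaving out each library. With no fold limit, 2407 of the 13417 tested genes passed at 24 h. The 48 h count of 4 became 2 (KLK10 and SERPINB5) with TPM values, and with a pseudocount of 5 KLK11 (0.38) lay under the fold limit. With TPM values the difference of the responses (3 members) and Ad-TEADi 48 h against 12 h (4 members) both gave 0. Scaled to each gene's mean CPM, an alternative chosen after the data were seen, TPM values gave 1 member at 24 h, 4 at 48 h, 3 for the difference and 4 for Ad-TEADi 48 h against 12 h. SERPINB5 lay at 0.56 in that last comparison with unscaled TPM values, just under the fold limit. The cause of these losses was not tested. For Ad-GFP 48 h against 12 h the count of 0 became 1 with a pseudocount of 0.1 (KLK5 higher), 2 with no fold limit (KLK5 and SERPINB5) and 2 with no filter and a pseudocount of 0.1 (KLK5 higher, CST6 lower), the last chosen after the data were seen. With no fold limit, 7516 of the 13417 tested genes passed in that comparison, so the count of 2 does not set the members apart. The 48 h count of 16 other desquamation genes became 10 with a pseudocount of 5 and 7 with TPM values. With a filter on a mean of at least 1 CPM it became 9. The count of 12 for the difference of the responses became 5, 4 and 5 in these settings, in that order. No called value changed sign among 504 values of members, and 13 values that were not called did.

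The replicate numbers did not pair the samples, with correlations of deviations between −0.109 and 0.0907. With the replicate number as a block 1 member was called at 24 h, 4 at 48 h and 3 for the difference, as without it. Depth limits KLK7, KLK8 and CST6, which held 33, 82 and 28 estimated reads in all Ad-TEADi 48 h libraries together.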
